A study of Homo sapiens with 17 samples.

Results

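The partition of transcripts between PABPC and PABPN was described by setting the average TPM (its share of the transcripts in a library, scaled to a common total) of each gene in the PABPC IP against its average TPM in the PABPN IP. A TPM of 5 or more had to be reached in at least 1 of the IPs, which left 12583 of the 18869 genes of the table, 16905 of which have TPM values. They comprised 10914 protein-coding genes (PCGs), 1659 genes of another biotype and 10 genes with no biotype. In HEK293T cells, an established line of human embryonic kidney origin, a lentivirally integrated construct encoded the C-to-U editing enzyme APOBEC1, joined to ribosomal protein RPS2 (RPS2-STAMP) or on its own (Control-STAMP). Every sample was induced with 50 ng/ml doxycycline for 24 h and crosslinked with 0.1% formaldehyde, and single lysates were divided for the IPs with antibodies to the endogenous PABPN and PABPC. The 17 samples were 6 Inputs (3 per construct), 6 PABPN IPs (3 per construct) and 5 PABPC IPs (3 of RPS2-STAMP and 2 of Control-STAMP). Whether each line is 1 clone or a pool is not given in the sources used here. The study states that cells were fractionated and that the IPs were made from the cytoplasmic portion, whereas the labels describe whole pellets and no fractionation.

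Poly(A)-binding proteins coat the tail that is added to the 3′ end of a transcript after cleavage. PABPN1 is mainly nuclear, binds the tail while it is made and stimulates poly(A) polymerase, whereas PABPC1 and its relatives are mainly cytoplasmic, bind the initiation factor eIF4G and take part in translation and mRNA decay. A transcript therefore usually meets PABPN first and PABPC after export. The question addressed here is which gene families, biotypes and single genes lie at the PABPC end and which at the PABPN end of this range.

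The log2 ratio below is log2 of (PABPC IP TPM + 0.5) over (PABPN IP TPM + 0.5), so that positive values mean more in the PABPC IP. The pseudocount of 0.5 understates the ratio of low genes. Each TPM is an average that the authors deposited for an IP, with no value per replicate, so that no SD, n or p accompanies any ratio and no difference has a replicate check. Genes with a ratio of at least 2-fold are counted as a description. TPM is a share of the column, and the columns differ in composition. Mitochondrially encoded mRNAs took 21.2% of the PABPN IP, 2.46% of the PABPC IP and 6.19% of the Input. Cytosolic ribosomal protein mRNAs took 17.7% of the PABPC IP, 5.79% of the PABPN IP and 6.62% of the Input. Genes named 7SK, a nuclear RNA with no poly(A) tail, took 20.4% of the Input, 2.94% of the PABPN IP and 0.173% of the PABPC IP.

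Over all 12583 genes the median log2 ratio was -0.42, with quartiles of -1.24 and 0.32 and extremes of -5.78 and 2.98. At least 2-fold more TPM was found in the PABPC IP for 810 genes (6.44% of all) and in the PABPN IP for 3993 genes (31.7%). Among PCGs the counts were 677 (6.2%) and 3021 (27.7%). At 4-fold the asymmetry was wider, with 38 genes on the PABPC side and 1231 on the PABPN side. Of the 12583 genes, 2005 passed through the PABPN IP alone and 180 through the PABPC IP alone. With no filter on TPM the counts at 2-fold were 887 and 5240, and when both IPs had to reach 5 TPM they were 732 and 2345. The zero of the scale also depends on composition. With the ratio centred on its median over these genes, 2131 genes (16.9%) lay at least 2-fold to the PABPC side and 2576 (20.5%) at least 2-fold to the PABPN side. With the columns rescaled to equal sums over PCGs outside the mitochondrial and ribosomal protein mRNAs, the counts were 383 and 4948. The order of genes is the same after centring, and the positions of families below are therefore read against the median of -0.42 as well as against 0. The 2 genes just inside the filter were RNASE4, with a TPM of 5.00109 in the PABPC IP against 3.23 in the PABPN IP, and LINC01535, with 1.78 and 5.001. F3 (2.48 and 4.99748) was just outside.

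**Figure D1:**
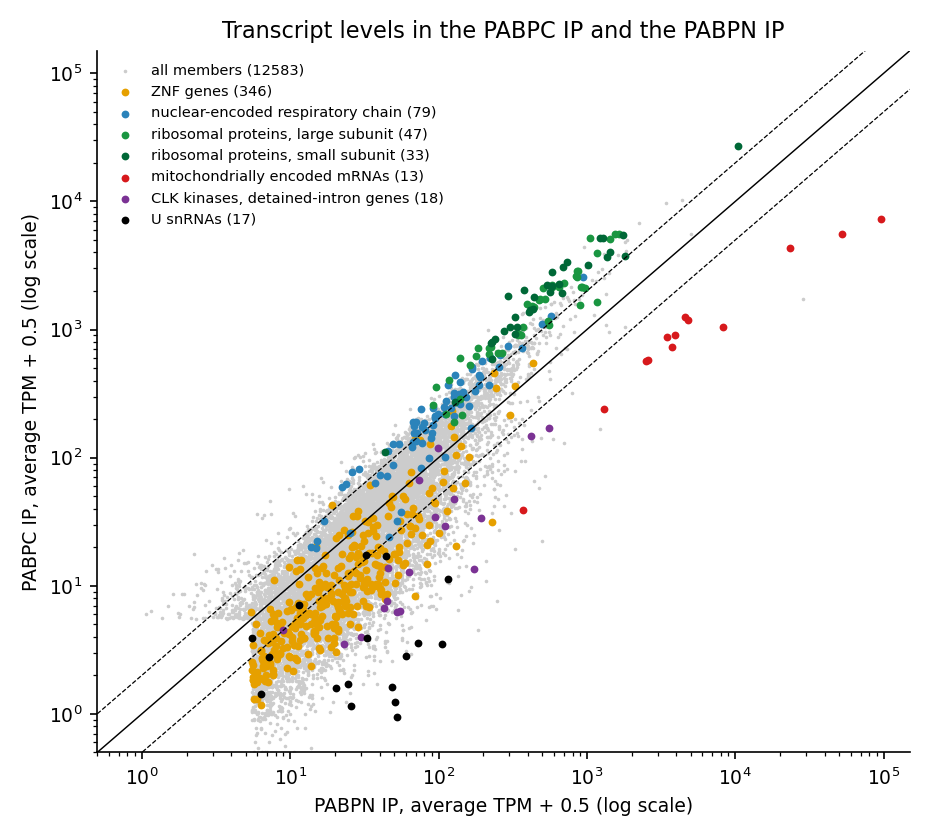
Average TPM + 0.5 of each of the 12583 genes in the PABPN IP (x axis) and the PABPC IP (y axis), both on log scales. The solid line marks equal TPM and the dashed lines a 2-fold difference. Coloured points are ZNF genes, respiratory chain genes, ribosomal proteins, mitochondrially encoded mRNAs, detained-intron genes and U snRNAs. Ribosomal protein mRNAs lie above the diagonal, and the 13 mitochondrially encoded mRNAs and the U snRNAs lie below it.

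The biotypes separated along the ratio. PCGs had a median of -0.33, close to the median of all genes because they form most of them. lncRNAs, which are transcripts without a long open reading frame, had a median of -1.33 over 1070 genes, with 6 at least 2-fold to the PABPC side and 660 at least 2-fold to the PABPN side. Centred on the median of all genes, these counts became 26 and 501. The lncRNA level was low in both IPs, with a median TPM of 4.52 in the PABPC IP against 11.2 in the PABPN IP, so that many passed through the PABPN IP alone. When both IPs had to reach 5 TPM the lncRNA median was -0.66. Transcripts awaiting experimental evidence (TEC, 30 genes) had a median of -1.69, or -0.90 when both IPs had to reach 5 TPM, and none was above 0.

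Pseudogenes fell on both sides of the ratio. Processed pseudogenes are copies of spliced mRNAs inserted back into the genome, and unprocessed pseudogenes are duplicated genes that keep introns and surrounding DNA. The 207 processed pseudogenes had a median of 1.15, the only positive median among the 10 biotypes with at least 10 genes, and 118 of them were at least 2-fold to the PABPC side. They supplied 31 of the 50 genes with the highest ratio. The 59 unprocessed pseudogenes had a median of -2.09 and the 174 transcribed unprocessed pseudogenes a median of -1.75, with 45 and 108 genes at least 2-fold to the PABPN side. The 38 transcribed processed pseudogenes had a median of -1.06, with genes past 2-fold on both sides. At least 2-fold to the PABPN side were 20 of them (52.6%, against 31.7% of all genes). At least 2-fold to the PABPC side were 5 (13.2%, against 6.44%). After centring the counts were 11 and 7, where the shares of all genes were 20.5% and 16.9%. The median of transcribed unprocessed pseudogenes was -0.80 when both IPs had to reach 5 TPM, and that of unprocessed pseudogenes was -0.86 with no filter on TPM. The 72 pseudogenes of ribosomal protein genes, nearly all of them processed, had a median of 1.63. With no filter the medians of processed and ribosomal protein pseudogenes were 0.53 and 0.99. Reads of a pseudogene can come from the near-identical parent mRNA, so their ratios are uncertain as values of their own locus. RPL29P12 had the highest value among them, with 5.52 TPM in the PABPC IP against 0.573 in the PABPN IP (log2 ratio 2.49), and RPL32P3, an unprocessed one, the lowest, with 5.37 and 39.4 (-2.77).

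The lowest single ratios were found among small structured RNAs. The 24 snRNAs, components of the spliceosome that carry no poly(A) tail, had a median of -3.62 with no gene above 0. Most had under 5 TPM in the PABPC IP, and the median was -1.38 for those that reached 5 TPM in both IPs. RNU5D-1 (chromosome 1 from 44731055 to 44731170 of hg38) had the lowest ratio of all genes, with 0.448 TPM in the PABPC IP, 51.6 in the PABPN IP and 51.7 in the Input (log2 ratio -5.78). VTRNA1-3, a vault RNA, had 3.99, 185 and 87.7 TPM in the same order (-5.37), and RNU5F-1 had 3.02, 105 and 174 (-4.91). In the spliceosomal RNAs named RNU, a list added after values had been seen whose median of -3.68 became -1.15 under the same condition, the U1, U4 and U5 genes all lay below the U6 genes (-3.36 for RNU5A-1, the highest of the former, and -3.07 for RNU6-322P, the lowest of the latter). RNU4-2 had 3.06 TPM in the PABPC IP against 72.3 in the PABPN IP (-4.35), and RNU1-1 had 1.10 and 19.97 (-3.68). By comparison RNU6-8 had 16.8 and 31.97 (-0.91), and RNU6ATAC, the U6 of the minor spliceosome, had 3.42 and 5.06 (-0.50). These genes belong to families of near-identical copies among which reads can be split. They are also shorter than the sequenced fragments usually are, so that few reads can set a high TPM. MIR3685, whose annotated hairpin is 62 bases long, had 7.15 and 249 TPM (-5.03).

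Outside the snRNAs the tailless RNAs did not share 1 position. The more abundant of the 2 genes named 7SK, a regulator of transcription elongation, had 1725 TPM in the PABPC IP, 28629 in the PABPN IP and 174271 in the Input (log2 ratio -4.05). RN7SL1, the RNA of the cytoplasmic signal recognition particle, had 5547, 5066 and 128398 (0.13). Both were well under the Input in either IP, and they differed in how the remainder was divided. These genes were picked after their values were seen.

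**Figure D2:**
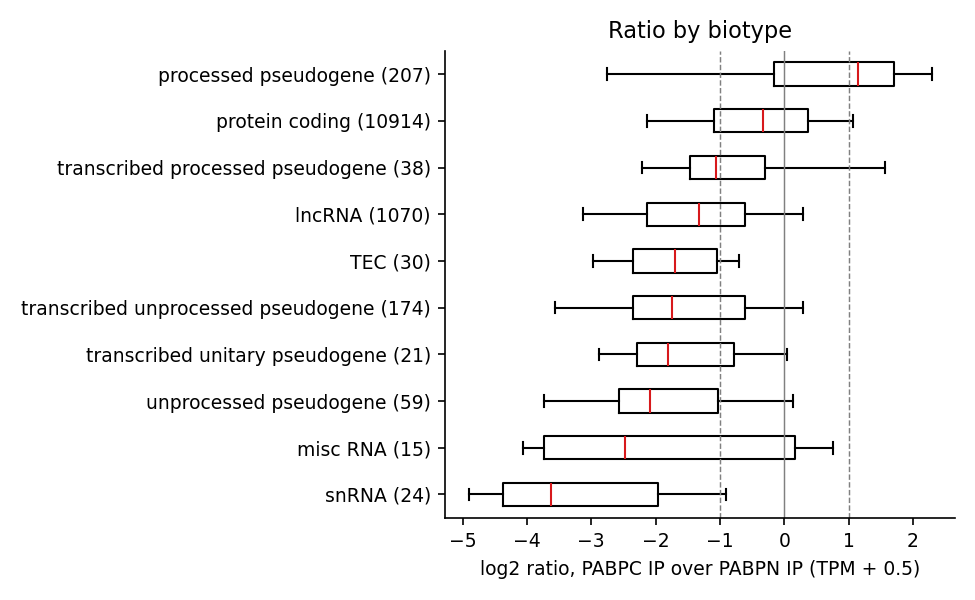
Log2 ratio of PABPC IP over PABPN IP for the 10 biotypes with at least 10 genes, with the number of genes in brackets. Boxes span the quartiles with the median in red, whiskers run from the 5th to the 95th percentile of genes, and the lines mark 0 and a 2-fold ratio on each side. Processed pseudogenes have the highest median (1.15) and snRNAs the lowest (-3.62).

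Among PCGs the PABPC end was occupied by the mRNAs of the cytoplasmic translation machinery. Of the 10 PCGs with the highest ratio 8 encode ribosomal proteins, and 42 of the 50 highest encode cytosolic ribosomal proteins. RPS27 (ENSG00000177954, chromosome 1 from 153990762 to 153992155 of hg38, 4 exons), a small-subunit protein, came first with 1818 TPM in the PABPC IP, 291 in the PABPN IP and 390 in the Input, a 6.23-fold ratio (log2 ratio 2.64). RPS3 followed with 2049, 377 and 693 TPM (2.44), then RPL8 with 5148, 1050 and 1707 (2.29) and RPS18 with 2803, 583 and 854 (2.27). RPS21 had 3378, 728 and 880 TPM (2.21), RPL37A had 599, 140 and 184 (2.09) and RPS4X had 5200, 1222 and 1807 (2.09). The other two were TPT1, the translationally controlled tumour protein, with 1000, 216 and 351 TPM (2.21), and EEF1G, a subunit of elongation factor 1, with 4416, 958 and 1550 (2.20). In each of these genes the Input lay between the IPs. They were also the highest among the 2158 genes that reached a TPM of 100 in at least 1 IP.

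The mRNAs of ribosomal proteins and of several translation factors begin with a terminal oligopyrimidine tract (TOP), a C at the cap followed by a run of C and T, through which their translation is regulated together. The windows below show the starts of those of the 10 highest and 10 lowest PCGs that were matched by symbol in the RefSeq table. Each runs from 15 bases before to 15 bases from the annotated start, 5′ to 3′ on the gene's strand, with bases 1 to 5 of the transcript in capitals (RefSeq starts on GRCh38.p14). The windows from RPS27 to RPS4X are from the PABPC end and those from TIMM23B-AGAP6 to PABPC1L from the PABPN end.
RPS27 (chr1:153990747-153990776, plus strand): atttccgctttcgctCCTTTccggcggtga
RPS3 (chr11:75399503-75399532, plus strand): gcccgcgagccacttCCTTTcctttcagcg
RPS18 (chr6:33272060-33272089, plus strand): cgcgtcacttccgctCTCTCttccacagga
RPS21 (chr20:62387088-62387117, plus strand): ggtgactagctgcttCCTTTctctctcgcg
TPT1 (chr13:45341169-45341198, minus strand): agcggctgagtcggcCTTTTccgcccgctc
EEF1G (chr11:62573877-62573906, minus strand): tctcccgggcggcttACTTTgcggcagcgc
RPL37A (chr2:216498829-216498858, plus strand): gcaccgcgtctcttcCTTTCtgggctcgga
RPS4X (chrX:72277234-72277263, minus strand): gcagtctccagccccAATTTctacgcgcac
TIMM23B-AGAP6 (chr10:49942038-49942067, plus strand): ggaagtgtggcgcttAACGGgaaccggcgc
RSRP1 (chr1:25338240-25338269, minus strand): ggagccacgcccaccACAACaacgcgtctg
AMH (chr19:2249308-2249337, plus strand): agcccagcccctggcAGCACccacgatgcg
WDR5B (chr3:122416048-122416077, minus strand): ggagattgacgcggcAGTGCacacctgctg
TTLL3 (chr3:9809712-9809741, plus strand): ctggggctcagtgctCTCTTccgccttcag
S100A6 (chr1:153535977-153536006, minus strand): actgcgacacagcccATCCCctcgaccgct
PABPC1L (chr20:44910045-44910074, plus strand): gggcccgcgcccaggAAGGAgggcttccgc

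A start was counted as TOP where base 1 was C and bases 2 to 5 were each C or T, read on the gene's strand only. Of the 10 highest PCGs 8 were matched and 6 of these had such a start, the exceptions being EEF1G and RPS4X. Of the 10 lowest PCGs 7 were matched and 1 had such a start, TTLL3. Such a start was found in 4.04% of all 27305 RefSeq promoters and in 5.67% of the 8938 matched PCGs of the partition. In 10 equal bins of PCGs by ratio, from bin 1 at the PABPN end to bin 10 at the PABPC end, the share lay between 3.89% and 5.77% in bins 1 to 9 and was 13.2% in bin 10. Ribosomal protein genes carried much of this, as 44 of their 64 matched members had a TOP start (68.8%). Without them bin 10 was at 9.18%. A TOP start outside the ribosomal proteins went with a modestly higher ratio, with a median of -0.086 over 463 genes against -0.35 over the 8411 PCGs without one. The annotated start can differ from the start used in these cells.

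Both ribosomal subunits lay far to the PABPC side as whole families. All 33 small-subunit mRNAs were at least 2-fold to that side, with a median log2 ratio of 1.78 and RPS27 at the top. Of the 47 large-subunit mRNAs 41 were, with a median of 1.70 and a range from RPL5 (1628 and 1160 TPM, 0.49) to RPL8. RPL36A (216 and 144 TPM, 0.58) and RPL37 (190 and 127, 0.58) lay nearest to RPL5. RPS2 had 27182 TPM in the PABPC IP, 10493 in the PABPN IP and 8171 in the Input (1.37). Its reads may include those of the RPS2-STAMP construct in the samples that carry it, which was not tested. RPL7A, a large-subunit protein named in the study, had 5055, 1439 and 1750 TPM (1.81).

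The other families with a clearly positive median encode abundant, mostly small proteins. Nuclear-encoded respiratory chain subunits (79 genes) had a median of 1.13, and 44 were at least 2-fold to the PABPC side (68 after centring) and none to the PABPN side. NDUFA1, a small accessory subunit of complex I, was highest with 439 TPM in the PABPC IP against 129 in the PABPN IP (1.76), and NDUFS1, the largest core subunit of that complex, was lowest with 23.6 and 46.0 (-0.95). Tubulins (9 genes) had a median of 1.06, led by TUBA1B with 2142 and 775 TPM (1.47). Selenoproteins (19 genes, median 0.96) ran from GPX4, a lipid peroxidase with 1057 and 325 TPM (1.70), down to SELENOO with 28.5 and 86.9 (-1.59). The Sm and LSm proteins that bind spliceosomal RNAs had a median of 0.93 over 21 genes, and SNRPD2 was highest with 743 and 263 TPM (1.497).

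Several further lists had medians between 0.4 and 0.8. Proteasome subunits (34 genes) had a median of 0.78, with PSMB5, a catalytic subunit, at 506 and 162 TPM (1.64) and PSMD1, a large scaffold of the regulatory particle, at 32.2 and 65.3 (-1.01). Signal peptidase, translocon and oligosaccharyltransferase genes (27) had a median of 0.71, and SEC61B was highest with 418 and 142 TPM (1.55). Mitochondrial ribosomal proteins (78 genes) had a median of 0.67, and 18 were at least 2-fold to the PABPC side, or 49 after centring. MRPL51 led them with 291 and 88.9 TPM (1.71), and MRPS25 was lowest with 48.7 and 167 (-1.77). The 8 subunits of the CCT chaperonin, which folds actin and tubulin, were all above 0 with a median of 0.64. Glycolytic enzymes (17 genes, median 0.60) ran from LDHB with 589 and 213 TPM (1.47) to ENO2 with 10.5 and 24.4 (-1.17), and CKB, the creatine kinase counted with them, had 2405 and 1156 (1.06). Translation initiation and elongation factors had a median of 0.44 over 65 genes and ran from EIF4EBP3 (-2.25) to EEF1G (2.20). At least 2-fold to the PABPC side were 12 (18.5%, against 6.44% of all genes). To the PABPN side were 7, a share of 10.8% that was under the 31.7% of all genes. After centring the counts were 26 and 4, where the shares of all genes were 16.9% and 20.5%.

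**Figure D3:**
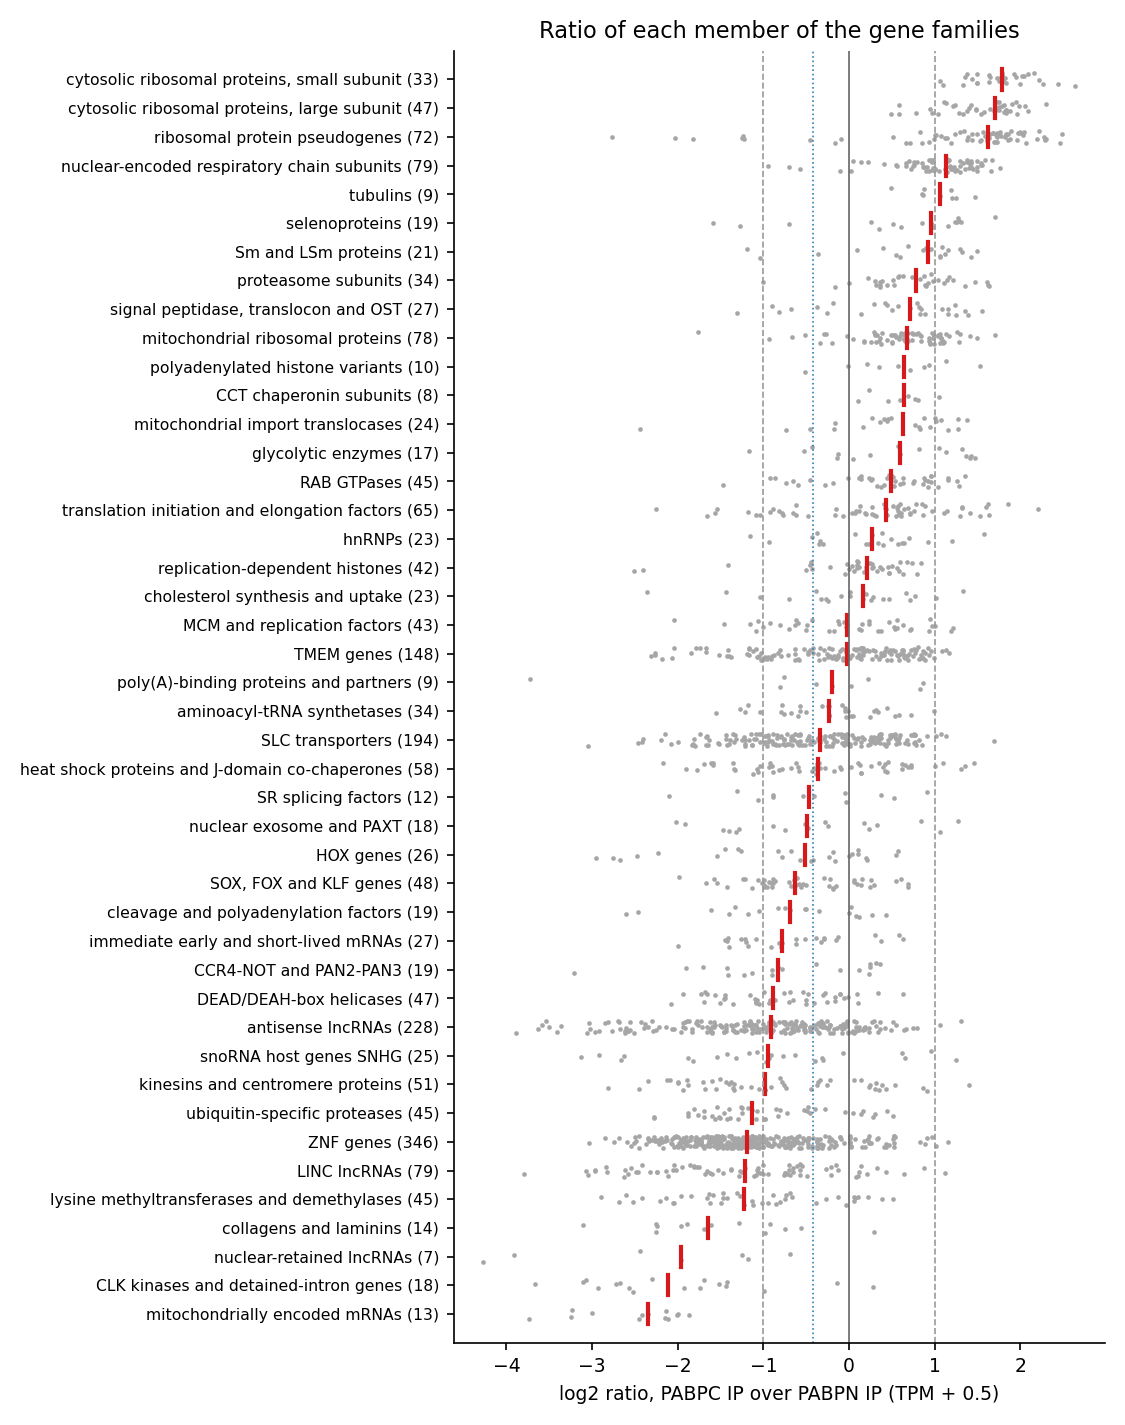
Log2 ratio of PABPC IP over PABPN IP for each member (grey points, shifted vertically for display) of the families, with the median of each family in red and the number of members in brackets. The solid line marks 0, the dashed lines a 2-fold ratio and the dotted line the median of all 12583 genes (-0.42). The lists added after values had been seen are not shown. The medians shown run from -2.35 for mitochondrially encoded mRNAs to 1.78 for small-subunit ribosomal proteins.

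Mitochondrially encoded mRNAs formed the family farthest to the PABPN side among the lists of PCGs, and the most abundant transcripts there. All 13 were at least 2-fold to the PABPN side, with a median of -2.35 and a range from -3.73 to -1.87. MT-CO1, a subunit of cytochrome c oxidase (chromosome M from 5904 to 7445), had 7230 TPM in the PABPC IP, 95994 in the PABPN IP and 19312 in the Input. MT-CO3 had 5535 and 52268 in the IPs (-3.24) and MT-CO2 4355 and 23217 (-2.41), whereas MT-ATP6, at the upper end of the family, had 1252 and 4591 (-1.87). These mRNAs are made and translated inside mitochondria, carry short tails and are out of reach of both proteins in an intact cell. The nuclear-encoded subunits of the same respiratory complexes lay at the other end of the ratio, with the medians of the 2 groups at 1.13 and -2.35.

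CLK kinases and other genes known for introns that are spliced late, called detained introns, had a median of -2.11, with 15 of 18 at least 2-fold to the PABPN side. CCNL2, a cyclin that localises to nuclear speckles, had 13.1 TPM in the PABPC IP, 173 in the PABPN IP and 14.4 in the Input (-3.67). NKTR had 5.88 and 54.5 TPM in the IPs (-3.11), CCNL1 had 5.72 and 51.7 (-3.07), CLK4 had 3.00 and 22.5 (-2.71) and CLK1 had 7.12 and 44.7 (-2.57). OGT, an enzyme that adds N-acetylglucosamine to proteins and controls its own splicing, had 33.1 and 192 TPM (-2.52). CLK3 was just short of 2-fold (3.99 and 8.47 TPM), and the exceptions were TRA2B (66.4 and 73.0 TPM, -0.14) and TRA2A (119 and 98.5, 0.28), which regulate splicing through poison exons. Because the deposited TPM adds reads of introns to those of exons, unspliced transcripts enter these values, and their part was not tested.

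The 10 PCGs with the lowest ratio were of mixed function. TIMM23B-AGAP6, an annotated join of neighbouring genes that overlaps TIMM23B and is in the deposited table although readthrough transcripts were stated to be removed, had 2.09 TPM in the PABPC IP against 47.8 in the PABPN IP (-4.22). RSRP1, an arginine- and serine-rich protein, had 1.23 and 30.3 (-4.16), AMH, a hormone of the gonads, 9.34 and 164 (-4.06), and WDR5B, a single-exon gene, 3.39 and 55.9 (-3.86). TTLL3 had 2.61 and 44.5 TPM (-3.85), S100A6 0.141 and 8.02 (-3.73), PABPC1L 2.81 and 43.3 (-3.72), ZBTB40 6.5 and 91.7 (-3.72) and PGGHG 2.34 and 36.4 (-3.70), and MT-CO1 completed the set. In these genes other than MT-CO1 the Input TPM was between 0.186 and 8.07, under the PABPN IP in each.

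Several of these genes stand close behind another gene on the same strand. The study describes transcription running on from CENPM towards TNFRSF13C and removed such genes from its result tables, while the deposited table still holds TNFRSF13C, with 2.51 TPM in the PABPC IP against 13.3 in the PABPN IP (-2.19). CENPM, a centromere protein, had 111 and 84.9 TPM (0.38). Behind AMH, the nearest upstream PCG on the same strand was SF3A2 at 654 bases. SF3A2 had 107.5 TPM in the PABPC IP against 215.6 in the PABPN IP (-1). Behind TTLL3 the nearest was ARPC4 at 985 bases, with 188 TPM in the PABPC IP against 105 in the PABPN IP (0.83). Behind PABPC1L it was YWHAB at 1528 bases, with 172 and 254.6 TPM (-0.57). Over all nuclear-encoded PCGs with coding annotation, 13.4% of bin 1 had an annotated gene of the same strand within 2 kb upstream, against 7.25% in bin 5 and 12.4% in bin 10. The median ratio was -0.27 with such a neighbour and -0.33 without. The part of upstream transcription in single values was not tested.

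Several lists of regulatory proteins also had medians well below that of all genes. ZNF genes, a large family of DNA-binding zinc finger proteins, had a median of -1.20 over 346 genes, with 218 at least 2-fold to the PABPN side and 2 to the PABPC side (132 and 6 after centring). ZNF692 was lowest with 7.86 TPM in the PABPC IP against 68.3 in the PABPN IP (-3.04), and ZNF385A was highest with 42.3 and 18.7 (1.16). On chromosome 19, which holds 146 of these genes, the median of all PCGs was -0.18, and it was 0.11 without the ZNF genes. Lysine methyltransferases and demethylases (45 genes) had a median of -1.22, and KMT2A was lowest with 6.33 and 50.4 TPM (-2.90). Ubiquitin-specific proteases (45 genes) had a median of -1.14, led by USP34 with 10.4 and 52.2 TPM (-2.28), and kinesins and centromere proteins (51 genes) a median of -0.98, with CENPJ at 2.50 and 20.6 (-2.82) and CENPW at 201 and 76.1 (1.40). Collagens and laminins (14 genes) had a median of -1.65, or -0.96 when both IPs had to reach 5 TPM, and LAMB2 had 3.99 and 38.3 TPM (-3.11).

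The families that act on RNA themselves were divided. DEAD/DEAH-box helicases had a median of -0.89 over 47 genes, with 19 (40.4%, against 31.7% of all genes) at least 2-fold to the PABPN side and none to the PABPC side (11 and 1 after centring). DDX17 was lowest with 140 and 594 TPM (-2.08). Cleavage and polyadenylation factors (19 genes, median -0.69) ran from RBBP6 with 11.8 and 74.2 TPM (-2.60) to NUDT21 with 155 and 115 (0.43). The deadenylase subunits of CCR4-NOT and PAN2-PAN3 had a median of -0.83 over 19 genes, and PAN2, which trims long tails, stood apart with 5.07 and 50.9 TPM (-3.21) from the next gene, TNKS1BP1, with 7.90 and 30.95 (-1.90). Nuclear exosome and PAXT genes (18, median -0.49) ran from ZFC3H1 with 4.64 and 20.4 TPM (-2.02) to C1D with 33.8 and 13.8 (1.27). SR splicing factors (12 genes, median -0.47) ran from SRSF11 with 36.3 and 157 TPM (-2.10) to SRSF1 with 554 and 294 (0.91). The hnRNPs had a median of 0.26 over 23 genes, and HNRNPAB had 753 and 328 TPM (1.20) and HNRNPA2B1 124 and 97.5 (0.34).

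The mRNAs of the poly(A)-binding proteins lay near the middle of the range with 1 exception. PABPC1, the main cytoplasmic protein, had 1305 TPM in the PABPC IP, 1115 in the PABPN IP and 466 in the Input (0.23), PABPN1, the nuclear protein, had 272, 355 and 101 (-0.38), and PABPC4 had 105, 179 and 66.2 (-0.76). ZC3H14, a nuclear zinc finger protein that binds poly(A), had 14.5 and 25.8 TPM in the IPs (-0.81). The PABPC-interacting proteins PAIP1 (84.1 and 47.1 TPM, 0.83) and PAIP2 (130 and 71.3, 0.87) were higher in the PABPC IP, and PAIP2B had 16.7 and 19.3 (-0.20). PABPC1L, a relative of PABPC1 expressed mainly in germ cells, was the exception at -3.72. The list was made by symbol and also holds human NAB2, which is not a poly(A)-binding protein, with 12.03 and 11.8 TPM (0.027). The median of the list includes it. The mRNA of each bait was thus neither at the end of its own IP nor at the other end.

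Among lncRNAs with a symbol (514 genes) the 6 lowest were divergent transcripts, microRNA host genes and MALAT1, a transcript known to stay in the nucleus. As stated above, the study describes the IPs as made from the cytoplasmic portion. SUGT1-DT had 0.672 TPM in the PABPC IP against 25.9 in the PABPN IP (-4.50). MIR17HG, the host of the miR-17-92 cluster, had 5.96 and 135 (-4.40), MALAT1, a nuclear speckle RNA, 10.3 and 208 with 55.0 in the Input (-4.27), and ZKSCAN2-DT 0.533 and 18.2 (-4.17). MIRLET7A1HG, a let-7 host, had 0.957 and 24.7 TPM (-4.11) and ST3GAL1-DT 0.277 and 12.1 (-4.02). NEAT1, the scaffold of paraspeckles, was not among the 6 lowest and is given because the study names it. It had 3.25 and 55.8 TPM with 4.27 in the Input (-3.91). Of 7 lncRNAs listed as nuclear-retained 6 were at least 2-fold to the PABPN side, or 4 after centring. The shares of all lncRNAs were 61.7%, or 46.8% after centring. HOTAIR, with 9.71 and 15.9 TPM (-0.68), was the one that was under 2-fold before centring. The median of this list was -1.96, or -1.18 when both IPs had to reach 5 TPM.

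At the PABPC end of the lncRNAs with a symbol, 4 of the 6 highest were at least 2-fold to that side. AGAP2-AS1 had 52.0 TPM in the PABPC IP against 20.7 in the PABPN IP (1.31), SNHG29, the host of snoRNAs, 696 and 293 (1.25), LINC01976 50.2 and 22.9 (1.12) and MIF-AS1 6.38 and 2.79 (1.06). HHLA3 (68.3 and 34.3 TPM, 0.98) and SNHG5 (63.9 and 32.6, 0.96) followed. The snoRNA host genes as a family had a median of -0.95 over 25 genes, with SNHG29 highest and SNHG12 lowest at 9.69 and 88.5 TPM (-3.13). Antisense lncRNAs (228 genes) had a median of -0.91, with NFYC-AS1 lowest at 2.56 and 44.7 TPM (-3.88), and LINC lncRNAs (79 genes) a median of -1.21. Divergent transcripts (100 genes, median -1.49) and microRNA host genes (15 genes, median -2.62), both lists added after values had been seen, had 71 and 12 genes at least 2-fold to the PABPN side and none to the other. When both IPs had to reach 5 TPM they were -0.84 for divergent transcripts, -0.75 for microRNA host genes, -0.74 for LINC lncRNAs and -0.52 for antisense lncRNAs.

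**Figure D4:**
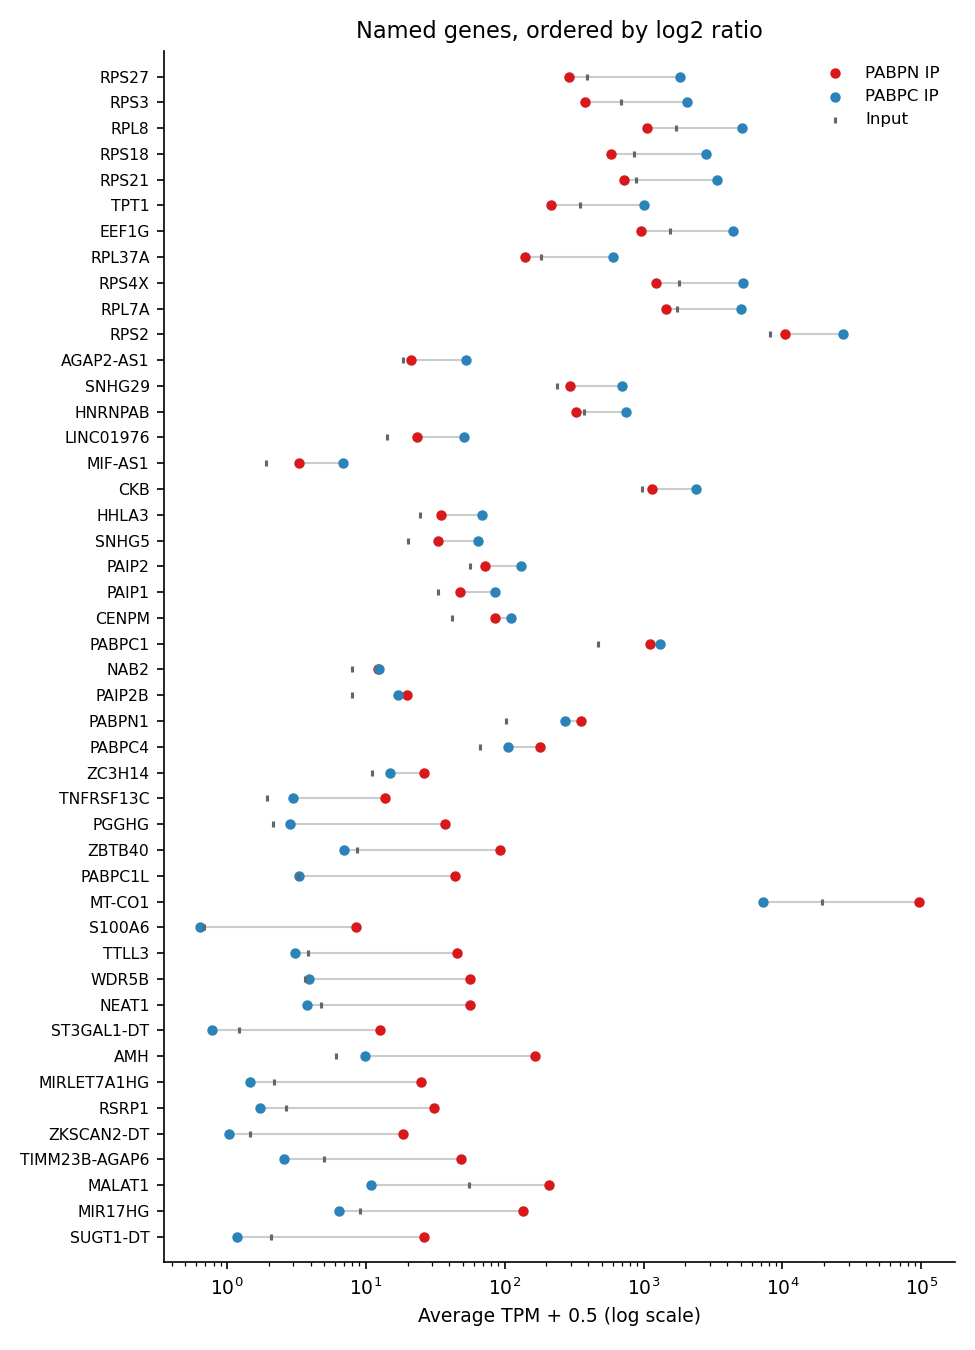
Average TPM + 0.5 on a log scale in the PABPN IP (red), the PABPC IP (blue) and the Input (grey tick) for PCGs and lncRNAs from both ends, the poly(A)-binding protein list and further single genes of the text, ordered by log2 ratio. RPS27 is at the top with 1818 TPM in the PABPC IP against 291 in the PABPN IP, and SUGT1-DT at the bottom with 0.672 and 25.9.

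The ratio of PCGs followed the length of their coding sequence more closely than any other feature examined. These figures are over the 10893 nuclear-encoded PCGs with a canonical coding transcript in GENCODE 44, and genes that share families, lengths and libraries are not independent. Across the 10 bins the median coding length fell in every step, from 2864 bases in bin 1 through 1558 in bin 5 to 615 in bin 10. The median number of exons fell from 15 to 6 and the median intron length of the gene from 41030 to 9981 bases. Spearman's correlation with the log2 ratio was -0.62 for coding length, -0.57 for transcript length, -0.37 for exons, -0.28 for intron length and 0.14 for GC content. The median ratio was 0.70 for coding sequences up to 450 bases (780 genes) and -1.45 for those over 3000 bases (1524 genes). Of the latter 1145 were at least 2-fold to the PABPN side and 1 to the PABPC side, against 27 and 232 of the former.

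The length relation was not carried by ribosomal protein and respiratory chain genes alone. Without these and the mitochondrial ribosomal proteins, coding sequences up to 450 bases had a median of 0.65 over 675 genes. It also appeared inside families, as the correlation with coding length was negative in all 29 families with at least 20 such PCGs, reaching -0.74 in signal peptidase, translocon and oligosaccharyltransferase genes (27) and -0.71 in kinesins and centromere proteins (51 genes), with values near 0 in mitochondrial ribosomal proteins (-0.050), RAB GTPases (-0.032) and the small (-0.030) and large (-0.0068) cytosolic ribosomal subunits. The 1 gene of over 3000 coding bases at least 2-fold to the PABPC side was NACA, a ribosome-associated chaperone, with 198 and 71.6 TPM (1.46). Its canonical annotation of 6234 coding bases is a muscle form, and shorter forms are known. PARP1, a DNA repair enzyme of 3042 coding bases, had 287 and 189 TPM (0.60). In the opposite direction lay short genes such as S100A6 (270 coding bases, -3.73), FAM229A (381 bases, 4.21 and 29.6 TPM, -2.68) and the histone genes H2BC6 (378 bases, 1.97 and 13.6 TPM, -2.51) and H4C9 (309 bases, 0.546 and 5.03, -2.40). FAM229A lies 355 bases behind BSDC1 and H2BC6 710 bases behind H2BC5.

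**Figure D5:**
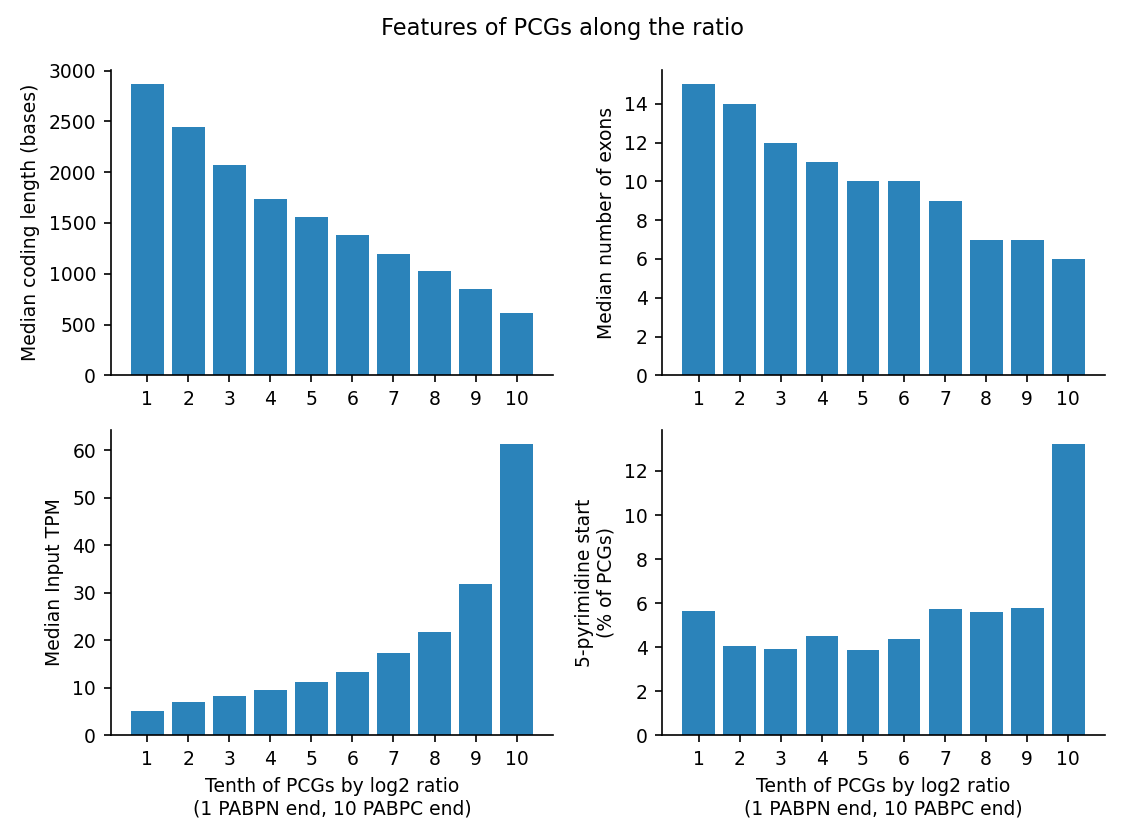
Median coding length in bases, median number of exons, median Input TPM, and percentage of genes whose annotated transcript starts with C followed by 4 pyrimidines, for 10 equal bins of nuclear-encoded PCGs by log2 ratio. Coding length falls from 2864 bases in bin 1 (PABPN end) to 615 in bin 10 (PABPC end), while Input TPM rises from 5.09 to 61.3.

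Abundance rose along the same axis. The median Input TPM was 5.09 in bin 1 and 61.3 in bin 10, and the correlation of Input TPM with the ratio was 0.56. In the IPs themselves the medians were 27.6 TPM in the PABPN IP and 5.63 in the PABPC IP for bin 1, and 74.5 and 160 for bin 10. Length and abundance moved together. Among the PCGs with the lowest Input TPM (up to 7.91), the median ratio was -0.19 for coding sequences up to 750 bases and -1.26 for those over 1500 bases. Among those with the highest Input TPM (from 22.4) it was 0.83 and -0.26. Genes of low Input enter in part through the PABPN IP alone. Over the 9588 PCGs that reached 5 TPM in both IPs, an alternative chosen after seeing the data, the correlation with the ratio was -0.62 for coding length and 0.49 for Input TPM, and the medians at the lowest Input became -0.017 and -0.97. Ribosome contact in the Input, as the authors' normalized EPKM (edits scaled to transcript length and reads, less those of Control-STAMP), was also higher at the PABPC end, with a median of 0.00568 in bin 1 and 0.122 in bin 10 and a correlation of 0.38. EPKM of a low transcript rests on few reads, and the part of abundance in this order was not tested.

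Exon number and annotated intron retention gave smaller differences. Single-exon PCGs (217 genes) had a median of -0.36, below the 0.039 of genes with 2 to 4 exons (1961 genes) and the 0.066 of genes with 5 to 10 (4072 genes), and genes with 21 or more exons (1460) had a median of -1.28. Replication-dependent histones, single-exon genes whose mRNAs end in a stem-loop in place of a poly(A) tail, had a median of 0.21 over 42 genes. H4C1, the highest of them, had 102 TPM in the PABPC IP, 57.0 in the PABPN IP and 881 in the Input (0.84), so that it was far under the Input in both. Genes with an annotated retained-intron transcript had a median of -0.40 (6665 genes) and genes without one -0.22 (4228 genes).

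Genes that encode related proteins were compared in pairs. Of 18 pairs, a list added after values had been seen, 16 had both members in the partition, and 7 of these differed by at least 1 on the log2 scale and 9 by less. TIMM23, the mitochondrial import channel, had 282 TPM in the PABPC IP against 133 in the PABPN IP (1.07), whereas its copy TIMM23B had 20.3 and 113 (-2.44), a difference of 3.52 on the log2 scale. H2AZ1 had 1491 and 518 TPM (1.52) and H2AZ2, which encodes a nearly identical histone H2A.Z of the same length, 158 and 225 (-0.51). EIF4A1 had 655 and 399 TPM (0.72) and EIF4A2 60.1 and 124 (-1.04), although both encode the helicase of the cap-binding complex. ENO1 (791 and 530 TPM, 0.58) and ENO2 differed by 1.75, and HNRNPF (286 and 183, 0.64) and HNRNPH1 (77.3 and 173, -1.16) by 1.80. RPS27L, with 15.6 and 8.37 TPM (0.86), was 1.78 below RPS27. The differences of HSPA8 and HSPA4 (0.01), TUBA1B and TUBA1A (0.22), LDHB and LDHA (0.33), HSP90AB1 and HSP90AA1 (0.43) and EEF1A1 and EEF1A2 (0.63) were smaller. RPL22 (218 and 111 TPM, 0.97) and RPL22L1 (226 and 109, 1.05) differed by less than 0.1, as did ACTB (3819 and 1610, 1.25) and ACTG1 (4121 and 1820, 1.18), the cytoplasmic actins. DDX5 (74.0 and 211 TPM, -1.51) and DDX17 were both on the PABPN side. In each pair the reads of similar stretches can be assigned to either gene.

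Further lists, chosen by function after values had been seen, filled in the regulation of mRNA. MicroRNA processing and silencing factors were far to the PABPN side, with a median of -1.88 and 10 of 12 at least 2-fold there. TNRC6B, a partner of Argonaute, had 7.80 and 39.3 TPM (-2.26), DICER1 23.3 and 108 (-2.18) and DROSHA 27.03 and 105 (-1.94), whereas TARBP2, the partner of Dicer, had 64.2 and 44.4 (0.53). Genes of m6A methylation (15, median -0.85) ran from RBM15 with 41.3 and 237 TPM (-2.51) to the demethylase ALKBH5 with 565 and 335 (0.75). Nonsense-mediated decay factors (15, median -0.58) ran from the kinase SMG1 with 12.3 and 75.3 TPM (-2.57) to MAGOH, of the exon junction complex, with 76.8 and 31.4 (1.28). mRNA export factors (18, median -0.37) ran from ZC3H11A with 7.64 and 49.5 TPM (-2.62) to ALYREF with 316 and 112 (1.49). Ribosome biogenesis factors (28, median -0.21) ran from UTP20 with 8.80 and 47.5 TPM (-2.37) to fibrillarin, FBL, with 549 and 191 (1.52). Actin and actin-binding proteins were on the PABPC side with a median of 0.78 over 22 genes, and cofilin, CFL1, was highest with 629 and 246 TPM (1.35).

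Some families near the middle lay on either side of 0 according to the scale, and the others listed here kept their sign. Immediate early and short-lived mRNAs had a median of -0.78 over 27 genes, with JUN at 85.8 and 227 TPM (-1.40) and ID3 at 477 and 307 (0.64). HOX genes (26) had a median of -0.51, with HOXD9 at 10.2 and 82.1 TPM (-2.95) and HOXD13 at 329 and 221 (0.57). Solute carriers (194 genes, -0.34), heat shock proteins and co-chaperones (58, -0.36), aminoacyl-tRNA synthetases (34, -0.23), mRNA export factors, ribosome biogenesis factors, the poly(A)-binding protein list, TMEM genes (148, -0.028) and MCM and replication factors (43, -0.021) had medians below 0 but above the median of all genes, so that their direction is positive after centring. Among transcription factors, SOX, FOX and KLF genes (48) had a median of -0.63, with FOXN4 lowest (-1.98) and FOXO6 highest (0.69). RAB GTPases (45 genes), which direct vesicles, had a median of 0.50, led by RAB7A (1.36). Mitochondrial import translocases (24 genes) had a median of 0.63, from TIMM23B to TIMM10 (1.38). Cholesterol genes (23) had a median of 0.17, which turned to -0.083 with the columns rescaled. PMVK, a kinase of the mevalonate pathway, was highest (1.33). The duplicated NBPF, NPIP and GOLGA8 genes, a list added after values had been seen, had 11 of 12 members at least 2-fold to the PABPN side with a median of -2.00 (-1.37 when both IPs had to reach 5 TPM), and their near-identical copies can share reads.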

How the data were processed

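RNA from the Input, PABPN IP and PABPC IP of HEK293T cells was sequenced as ribosomal RNA-depleted, stranded paired-end libraries. Reads were aligned by the authors to hg38 (STAR), counted with featureCounts 2.0.2 on a GENCODE 34-derived annotation without overlapping regions and readthrough transcripts, and added exonic and intronic TPM. The deposited values are signals per gene, an average TPM per fraction and a normalized EPKM. Which libraries entered each average is not stated. The study gives reads per library, but the averages carry no counts, so that the depth behind a single value cannot be computed.

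Computed here were log2 ratios with a pseudocount of 0.5, medians, quartiles and counts at 2-fold, without tests, using Python 3.11.15, NumPy 2.4.6, pandas 2.3.3 and matplotlib 3.10.9. The ratio code was tested on simulated data. Positions, lengths and exons came from GENCODE 44 on hg38 (12562 of 12583 genes matched by identifier), and start sequences from RefSeq.

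Named by rule were the 10 highest and lowest PCGs, the same among genes with a TPM of at least 100, the 6 highest and lowest lncRNAs, the ends of each family, the poly(A)-binding protein list and a short list of single genes. Other genes are examples chosen after their values were seen. Members and lists were chosen with earlier results of these data known, and 10 lists and the gene pairs were added after values were seen. Alternatives changed the pseudocount, filter, scaling, length and fold. A few genes and 1 family that these rules name are not reported here.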

Additional observations from a re-analysis of the deposited data

How the results depend on the processing

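The median log2 ratio over all genes (-0.42) stayed below 0 under each pseudocount, filter, length limit and rescaling (-0.22 to -0.67) and is 0 by construction after centring. The number of genes at least 2-fold to the PABPC side (810) became 2131 after centring, 383 with the columns rescaled to equal sums over PCGs outside the mitochondrial and ribosomal protein mRNAs, 38 at 4-fold and 2085 at 1.5-fold. The number at least 2-fold to the PABPN side (3993) became 2345 when both IPs had to reach a TPM of 5, where fewer genes were used, 2576 after centring and 1231 at 4-fold. The share of genes higher in the PABPC IP was 35.4% and 50% after centring. Of 648 medians of biotypes and families under these alternatives, 491 moved by up to 0.25 on the log2 scale, 143 moved further and 14 changed sign. Centring gave 56 of the 143 and 9 of the 14, and rescaling gave 30 and 2. After centring the sign turned for PCGs (0.095), MCM and replication factors (0.40), solute carriers (0.084), TMEM genes (0.40), aminoacyl-tRNA synthetases (0.19), heat shock proteins (0.060), mRNA export factors (0.054), ribosome biogenesis factors (0.21) and the poly(A)-binding protein list (0.22). TMEM genes also turned with a TPM of at least 10 (0.029) or 5 in both IPs (0.076), as did misc_RNA with 5 in both (0.22). With rescaling, cholesterol genes (-0.083) and replication-dependent histones (-0.039) turned. Centring raised every ratio by the same amount. Rescaling multiplied each column by a constant and so lowered every ratio by a similar amount, from -0.42 to -0.67 for the median of all genes. Shifts under these settings thus follow from the scale and say nothing about single families. The cause of the shifts under the other settings was not tested.

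No paired analysis was possible because each fraction has 1 averaged column, and leaving out replicates was not run for the same reason. Without read counts the precision of a TPM is unknown, and it is poorest for genes near 5 TPM and for short genes.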
